A study of Mus musculus with 6 samples.

Results

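Axon guidance genes encode secreted and cell-surface cues and the receptors that read them. The group described here was chosen by name: protein-coding genes of the semaphorins (classes 3 to 7), plexins, neuropilins, ephrins, Eph receptors, Slits, Robos, netrins and UNC5 receptors. The rule gave 68 genes of the 54838 in the table, 35 of them ligands and 33 receptors, and used no measured value. Their RNA was measured by bulk sequencing in mouse B16F10 melanoma cells given 50 µM fenofibrate (3 libraries) and in control cells (3 libraries), to learn which transcripts change with the drug. The drug, a fibrate prescribed against high blood lipids, is converted to an acid that activates the nuclear receptor PPARα. B16F10 is an established line derived from a melanoma of C57BL/6 mice. The labels call the libraries biological triplicates, but give each of the 6 a different cell line name, B16F10 through B16F15. Groups were taken from the titles; if those names are meant as written, line and treatment cannot be told apart. Treatment time and the vehicle of the controls are not given in the sources used here.

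Semaphorins signal through plexins, and most secreted class 3 semaphorins also need a neuropilin as co-receptor. Ephrins are tethered to the membrane, by a lipid anchor (A type) or a transmembrane segment (B type), and act on Eph receptor tyrosine kinases of neighbouring cells. Slits act on Robo receptors, and netrins on UNC5 receptors, DCC and neogenin. Melanocytes arise from the neural crest, whose migrating cells are steered by several of these cues, and in tumours the same families bear on adhesion, migration and vessel growth.

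The libraries held 13540038 to 14710856 counts with fenofibrate and 13594939 to 14072673 in control, and the limit that a count of 0 sets was 0.204 to 0.222 CPM (counts scaled to the library total), for counting error only. Replicates correlated at 0.987 to 0.988 across genes (log2 CPM), and the groups with each other at 0.962 to 0.968. Of the 8 melanocyte lineage markers all were tested, 6 were higher with fenofibrate, 0 lower and 2 not called, with summed levels of 27196 to 28792 CPM with fenofibrate and 22221 to 23649 CPM in control. Markers of keratinocytes (at most 0.148 CPM with fenofibrate and 0.284 CPM in control, summed over 6 genes), endothelium (at most 0.544 and 0.662 CPM over 5 genes) and fibroblasts (1.04 to 1.33 and 1.71 to 3.53 CPM over 6 genes) were near 0. Krt5, Krt1, Krt10, Trp63, Cdh5, Kdr, Tek, Emcn, Cd3e, Itgam, Snap25 and Stmn2 had 0 counts in all libraries. Among Schwann cell markers, S100b, which melanocytes also express, had 1300, 1236 and 1231 counts with fenofibrate, against 491, 455 and 525 counts in control, and was called higher (log2 fold change 1.37, adjusted p = 4.09e-05). Mbp was not called. Haematopoietic markers summed to 3.83 to 6.72 CPM with fenofibrate and 1.91 to 3.34 CPM in control, of which 1 of 6 genes was tested and higher. Neuronal markers summed to 114.8 to 128.9 CPM with fenofibrate and 96.7 to 101.2 CPM in control, nearly all of it Tubb3. Whether other cell types had a part in the results below was not tested, and in bulk RNA fewer cells and less RNA per cell cannot be told apart.

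With fenofibrate, the guidance genes had calls in both directions, as did all genes tested. The netrin receptor gene Unc5b and the plexin gene Plxnd1 rose, while the Eph receptor genes Epha3 and Ephb4, the semaphorin genes Sema4c and Sema6b and the ephrin gene Efna4 fell. Of the 68 genes, 47 passed the filter on low counts and were tested, 17 had a few counts and 4 had none. Of the 47, 7 were called higher and 14 lower at an adjusted p of 0.05 (edgeR quasi-likelihood test, adjusted over all genes tested), so 44.7% were called, against 39.1% of all 13629 genes tested. The share called higher or lower over all genes was 19.5% in each direction. A change of at least 1.5-fold was called for 11 of the 47 (23.4%, against 14.0% of all genes), 4 higher (7.18% of all genes) and 7 lower (6.81% of all genes). The genes called lower include Efna1 and Efna3, which passed the filter on low counts only through the control libraries. Their calls are no support for an excess of falls. In normalised CPM, the 3 fenofibrate libraries did not overlap the 3 controls for 28 of the 47 genes (59.6%), against 53.3% of all genes. The median log2 fold change was -0.10 over the guidance genes and 0.00 (-0.0021) over all genes. Ligands had 2 genes higher and 7 lower of 26 tested, and receptors 5 higher and 7 lower of 21. With DESeq2 the 47 gave 4 higher and 11 lower.

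**Figure D1:**
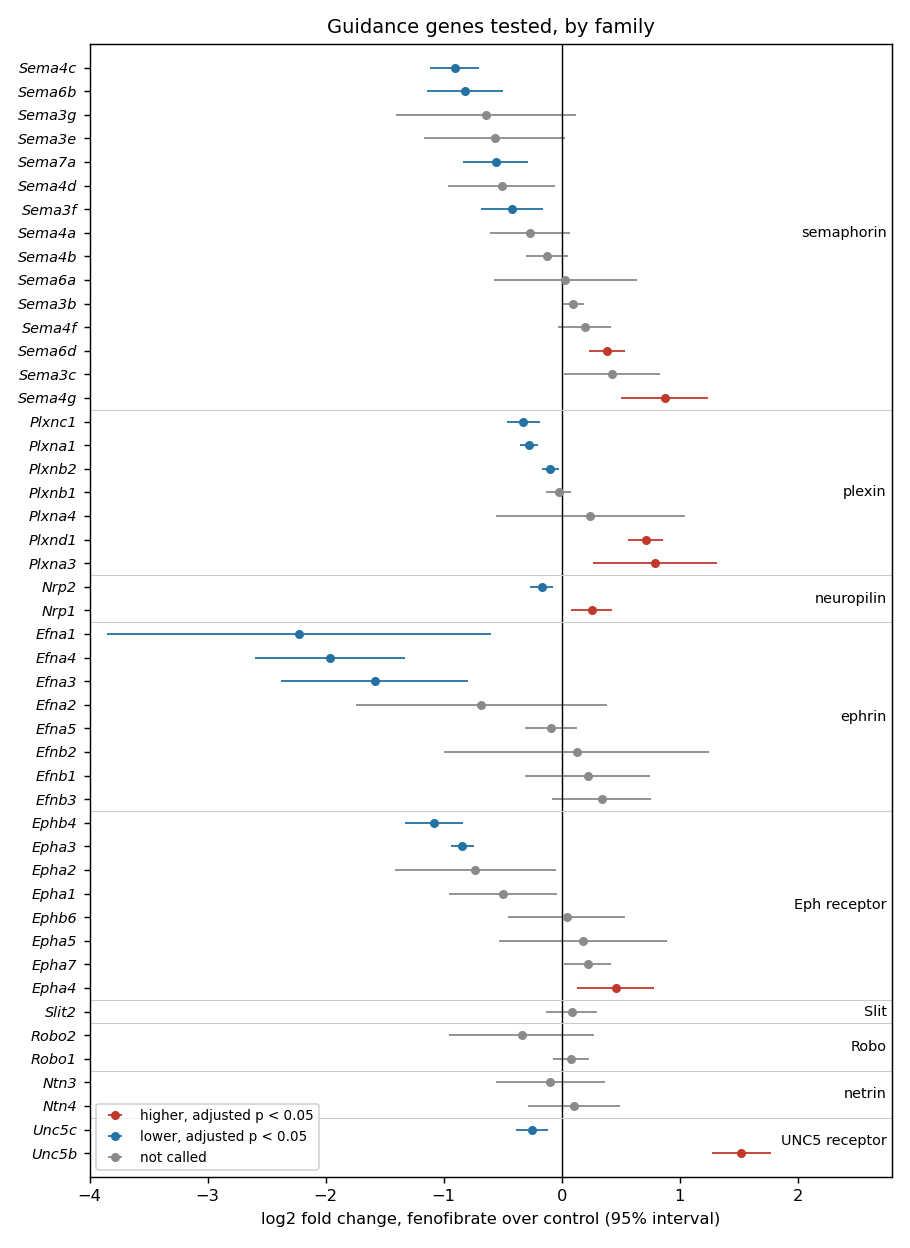
Log2 fold change of fenofibrate over control for the 47 guidance genes tested, grouped by family, with 95% intervals of the edgeR test (n = 3 libraries per group). The 7 genes called higher reach 1.52 (Unc5b), the 14 called lower reach -2.23 (Efna1), and the intervals are widest for genes with few counts.

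The upstream sequences of 7 of the genes with the larger changes are shown because they are the stretches next to the starts of genes that moved in opposite directions. They cover the 250 bases before the RefSeq transcription start (GRCm38.p6), written 5′ to 3′ on the strand of the gene. RefSeq entries matched 59 of the 68 genes by symbol. Unc5b (chr10:60831582-60831831, minus strand) and Plxnd1 (chr6:115995006-115995255, minus strand) were higher with fenofibrate. Epha3 (chr16:63864176-63864425, minus strand), Ephb4 (chr5:137349859-137350108, plus strand), Sema4c (chr1:36558382-36558631, minus strand), Efna3 (chr3:89322940-89323189, minus strand) and Efna4 (chr3:89338029-89338278, minus strand) were lower. Capitals mark matches, on either strand, to GGAATG (bound by TEAD factors), GGCGCC (bound by SMADs of the BMP pathway), TGANTCA (AP-1), CACGTG (E-box) or AGGTCA (the core letters read by many nuclear receptors).
Unc5b: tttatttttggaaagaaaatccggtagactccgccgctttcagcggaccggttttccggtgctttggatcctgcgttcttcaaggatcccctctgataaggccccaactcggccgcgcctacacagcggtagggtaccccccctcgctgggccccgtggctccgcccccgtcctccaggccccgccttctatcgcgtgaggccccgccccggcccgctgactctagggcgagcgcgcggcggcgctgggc
Plxnd1: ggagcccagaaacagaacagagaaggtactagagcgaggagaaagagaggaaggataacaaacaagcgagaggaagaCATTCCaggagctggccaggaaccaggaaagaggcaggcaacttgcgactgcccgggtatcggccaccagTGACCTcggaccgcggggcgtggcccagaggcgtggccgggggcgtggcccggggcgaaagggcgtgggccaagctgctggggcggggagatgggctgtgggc
Epha3: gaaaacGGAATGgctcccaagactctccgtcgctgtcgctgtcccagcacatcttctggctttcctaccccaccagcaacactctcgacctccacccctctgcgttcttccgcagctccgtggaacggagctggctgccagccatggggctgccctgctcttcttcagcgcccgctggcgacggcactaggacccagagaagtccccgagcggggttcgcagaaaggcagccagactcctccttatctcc
Ephb4: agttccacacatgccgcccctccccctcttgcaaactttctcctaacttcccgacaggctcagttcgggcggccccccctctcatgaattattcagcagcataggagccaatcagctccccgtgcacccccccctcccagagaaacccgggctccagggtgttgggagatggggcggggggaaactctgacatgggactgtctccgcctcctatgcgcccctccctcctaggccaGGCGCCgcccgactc
Sema4c: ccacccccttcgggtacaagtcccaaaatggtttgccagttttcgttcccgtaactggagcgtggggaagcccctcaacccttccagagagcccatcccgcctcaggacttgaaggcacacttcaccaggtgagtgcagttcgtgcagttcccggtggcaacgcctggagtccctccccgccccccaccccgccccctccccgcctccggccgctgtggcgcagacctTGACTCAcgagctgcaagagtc
Efna3: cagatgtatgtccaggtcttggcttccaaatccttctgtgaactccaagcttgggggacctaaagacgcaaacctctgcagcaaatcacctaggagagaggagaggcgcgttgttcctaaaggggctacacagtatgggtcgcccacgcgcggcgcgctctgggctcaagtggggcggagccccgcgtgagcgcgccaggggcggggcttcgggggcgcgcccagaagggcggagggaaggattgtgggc
Efna4: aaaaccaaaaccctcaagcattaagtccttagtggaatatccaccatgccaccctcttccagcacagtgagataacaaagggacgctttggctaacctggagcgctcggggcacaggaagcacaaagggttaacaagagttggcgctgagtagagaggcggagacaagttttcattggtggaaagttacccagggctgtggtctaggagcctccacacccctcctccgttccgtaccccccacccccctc

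Among these 7 stretches, Plxnd1 held a TEAD letter match 173 bases and the nuclear receptor letters 103 bases before the start. Epha3 held a TEAD match 244 bases, Ephb4 a GGCGCC 15 bases and Sema4c an AP-1 match, TGACTCA, 22 bases before the start. Unc5b, Efna3 and Efna4 held none of the 5 motifs in this window. No 2 matches overlapped. Over the 59 guidance genes with a sequence, 7 held the TEAD letters (11.9%, against 12.6% of all 32851 promoters of the same length) and 9 the nuclear receptor letters (15.3%, against 14.0%). The AP-1 letters were in 1 (1.69%, against 6.75%) and the E-box in 2 (3.39%, against 6.02%). GGCGCC was in 13 (22.0%, against 9.59%). These shares compare unlike sets. Each guidance gene had a single start, while the 32851 promoters were taken without such a choice or a limit to protein-coding genes. The start used lay 354843 bases from the deposited gene start for Robo1, 271370 for Sema3a and 37064 for Sema4d. Of the 7 genes called higher and the 12 called lower with a sequence, the TEAD letters were in 1 and 1, GGCGCC in 0 and 3, the AP-1 letters in 0 and 1, the E-box in 1 and 0, and the nuclear receptor letters in 2 and 0. The median GC content of these stretches was 64.8% for the guidance genes and 52.4% for all promoters. A match is only a run of letters, and binding was not measured.

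Plexins, the semaphorin receptors, held most of the RNA of the whole group. Summed over 9 genes they reached 280 ± 13.1 FPKM with fenofibrate and 252 ± 2.65 FPKM in control (mean ± SD, n = 3 each, as all such values below). FPKM are the authors' values, scaled for the library total and the gene length. Plxnd1 and Plxna3 rose among the 7 plexin genes tested, 3 others fell, and the last 2 were not called. That is 71.4% called, against 39.1% of all genes tested, but the calls on Plxna3 and Plxnb2 were lost with DESeq2, as given below. Plxnd1, a receptor of Sema3e best known from blood vessel patterning, was the most abundant of all 68 genes in both groups. It had 142, 133 and 159 FPKM with fenofibrate, against 92.1, 93.0 and 90.4 FPKM in control. Every fenofibrate library lay far above every control, and the spread was wider with fenofibrate. The fold change was 1.63 (log2 fold change 0.71 ± 0.06 SE, 95% interval 0.56 to 0.86, adjusted p = 0.000177). Its share of all plexin FPKM was 51.5% ± 2.31 with fenofibrate and 36.4% in control, where it ran from 36.2% to 36.5%. The gene, ENSMUSG00000030123, lies on chromosome 6 from 115954811 to 115995005 (GRCm38, as all positions here).

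Plxna1 (ENSMUSG00000030084, chromosome 6, 89316314 to 89362620), which signals for neuropilin-bound class 3 semaphorins and for Sema6d, had 58.9, 59.2 and 60.1 FPKM with fenofibrate, against 74.3, 77.2 and 73.0 FPKM in control. The groups were well apart (log2 fold change -0.28 ± 0.03, adjusted p = 0.00061). Plxnb2 (ENSMUSG00000036606, chromosome 15, 89155549 to 89180788), a receptor of Sema4c, had 54.7, 55.0 and 53.4 FPKM with fenofibrate, against 60.0, 59.7 and 61.3 FPKM in control. The groups did not overlap, but the difference was small (log2 fold change -0.10 ± 0.03, adjusted p = 0.0454). It missed the threshold with DESeq2 (adjusted p = 0.153) and without each library: fenofibrate replicate 1 (0.0768), 2 (0.0870) or 3 (0.0989), and control replicate 1 (0.0876), 2 (0.0811) or 3 (0.108). With a replicate block in edgeR, Plxnb2 was not called either (adjusted p = 0.119). Plxnc1 (ENSMUSG00000074785, chromosome 10, 94790866 to 94944835), the receptor of Sema7a, had 9.55, 9.10 and 8.72 FPKM with fenofibrate, against 12.5, 11.3 and 11.8 FPKM in control. It fell in every library relative to every control (log2 fold change -0.33 ± 0.06, adjusted p = 0.00415). Plxnb1 (ENSMUSG00000053646, chromosome 9, 109095389 to 109119917), a receptor of Sema4d, had 12.7, 12.1 and 12.8 FPKM with fenofibrate, against 13.5, 13.5 and 12.8 FPKM in control. These values overlapped (log2 fold change -0.03 ± 0.04, 95% interval -0.13 to 0.08, adjusted p = 0.659).

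The low-level Plxna3 (ENSMUSG00000031398, chromosome X, 74329066 to 74344689), a partner of Nrp2 for Sema3f, had 0.360, 0.232 and 0.276 FPKM with fenofibrate, against 0.179, 0.150 and 0.191 FPKM in control. All fenofibrate libraries were higher (1.73-fold, log2 fold change 0.79 ± 0.22, adjusted p = 0.0268), on 41 to 60 counts with fenofibrate and 26 to 32 in control. The call was lost with DESeq2 (adjusted p = 0.0809), with limma on log2(FPKM + 0.5) without a filter (0.114), and without fenofibrate replicate 1 (0.0819) or 3 (0.0554) or control replicate 1 (0.0662) or 2 (0.0846). Plxna4 had 22 to 38 counts with fenofibrate and 18 to 38 in control and was not called (log2 fold change 0.24 ± 0.34). Plxna2 (0 counts with fenofibrate and 5 in control) and Plxnb3 (2 and 1) were too low to test. By mean FPKM, the order Plxnd1, Plxna1, Plxnb2, Plxnb1, Plxnc1 held in both groups. The deposited FPKM divide by a length that counts overlapping exons of a gene more than once. Per merged exon length, Plxna1 and Plxnb2 had 74.7 and 72.9 FPKM with fenofibrate, close to each other, and 94.1 and 80.9 FPKM in control.

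Nrp2, a co-receptor for class 3 semaphorins and VEGF-C, was the main neuropilin. It had 30.4, 29.2 and 31.9 FPKM with fenofibrate, against 35.0, 35.8 and 36.3 FPKM in control, and took 92.5% ± 0.213 of neuropilin FPKM with fenofibrate and 94.3% in control. The groups were separate and the fall was small (ENSMUSG00000025969, chromosome 1, 62703285 to 62818695; log2 fold change -0.17 ± 0.04, adjusted p = 0.0156). Nrp1, the co-receptor of Sema3a and VEGF-A, went the other way, with 2.52, 2.36 and 2.49 FPKM with fenofibrate, against 2.22, 2.20 and 2.01 FPKM in control (log2 fold change 0.25 ± 0.07, adjusted p = 0.03). The call on Nrp1 was lost with DESeq2 (adjusted p = 0.101), with limma on log2(FPKM + 0.5) (0.102 with and 0.186 without a filter) or log2(FPKM + 0.1) (0.0956), and without fenofibrate replicate 1 (0.0786) or 3 (0.0668) or control replicate 1 (0.0574), 2 (0.0581) or 3 (0.0840). With a replicate block in edgeR, Nrp1 was not called either (adjusted p = 0.0673).

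Among the 15 semaphorin genes tested, 4 fell, 2 rose and 9 had no call. The 40% called was close to the 39.1% of all genes tested. Sema4c, a transmembrane semaphorin that binds plexin-B2, had 5.02, 3.96 and 4.51 FPKM with fenofibrate, against 8.95, 8.77 and 8.60 FPKM in control. No fenofibrate library came near the controls, and the level was 1.88-fold lower (log2 fold change -0.91 ± 0.09 SE, 95% interval -1.11 to -0.70, adjusted p = 0.000254). The gene, ENSMUSG00000026121, lies on chromosome 1 from 36548639 to 36558349 and shares exonic sequence with a non-coding gene on the opposite strand that had 128 counts over all libraries. Sema6b (ENSMUSG00000001227, chromosome 17, 56123085 to 56140343), a transmembrane semaphorin that binds class A plexins, had 0.721, 0.761 and 0.850 FPKM with fenofibrate, against 1.51, 1.49 and 1.29 FPKM in control. Its groups were separate as well, at 1.77-fold lower (log2 fold change -0.82 ± 0.14, adjusted p = 0.00309).

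Sema7a, the lipid-anchored ligand of plexin-C1, averaged 2.08 ± 0.0999 FPKM with fenofibrate and 3.18 ± 0.319 FPKM in control (log2 fold change -0.56 ± 0.12, adjusted p = 0.00795). The secreted Sema3f had 1.02, 0.871 and 0.931 FPKM with fenofibrate, against 1.28, 1.40 and 1.25 FPKM in control (log2 fold change -0.42 ± 0.11, adjusted p = 0.02). Neither gene's groups overlapped. The call on Sema3f was lost with DESeq2 (adjusted p = 0.0855), with limma on log2(FPKM + 0.5) without a filter (0.0526), and without fenofibrate replicate 2 (0.0626) or 3 (0.0512) or control replicate 2 (0.0675). With a replicate block in edgeR, Sema3f was not called either (adjusted p = 0.0527).

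In the other direction, Sema4g (ENSMUSG00000025207, chromosome 19, 44989101 to 45003397), a class 4 transmembrane semaphorin, had 2.29, 1.92 and 1.66 FPKM with fenofibrate, against 0.919, 1.16 and 1.26 FPKM in control. The lowest fenofibrate value lay above the highest control value (1.83-fold, log2 fold change 0.87 ± 0.16, 95% interval 0.50 to 1.24, adjusted p = 0.00427). Sema6d, a ligand of plexin-A1, averaged 4.29 ± 0.201 FPKM with fenofibrate and 3.41 ± 0.220 FPKM in control, without overlap (log2 fold change 0.38 ± 0.07, adjusted p = 0.00315). Sema3b (ENSMUSG00000057969, chromosome 9, 107597674 to 107609229), the semaphorin with the highest FPKM in both groups, had 10.3, 10.1 and 10.1 FPKM with fenofibrate, against 9.81, 9.92 and 9.95 FPKM in control. The groups did not overlap but the test missed the threshold (log2 fold change 0.09 ± 0.04, 95% interval -0.0018 to 0.19, adjusted p = 0.109). Sema3b and Sema3f are neighbours, 72270 bases apart.

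The remaining semaphorins tested were Sema3c, Sema3e, Sema3g, Sema4a, Sema4b, Sema4d, Sema4f and Sema6a, at mean levels of 0.180 to 3.43 FPKM with fenofibrate and 0.267 to 3.12 FPKM in control, and none was called. Sema4d, the ligand of plexin-B1, had 141, 130 and 136 counts with fenofibrate, against 136, 235 and 214 counts in control. The first control library thus lay within the fenofibrate range, and without it Sema4d was called lower (log2 fold change -0.71, adjusted p = 0.00572), against -0.51 and adjusted p = 0.0727 with all libraries. Sema3e, the ligand of plexin-D1, had 31, 30 and 44 counts with fenofibrate, against 57, 64 and 36 counts in control, and was called lower only without control replicate 3 (adjusted p = 0.0376, against 0.116). Sema3c had 57, 83 and 82 counts with fenofibrate, against 61, 53 and 52 counts in control, and was called higher only without fenofibrate replicate 1 (adjusted p = 0.0437, against 0.0939). Sema3a, Sema3d, Sema5a, Sema5b and Sema6c were too low to test. Of these, Sema6c had 10, 6 and 13 counts with fenofibrate, against 1, 2 and 3 counts in control. It was called higher without a filter on low counts (log2 fold change 2.21, adjusted p = 0.0261), and it passed the filter and was called without fenofibrate replicate 2 (adjusted p = 0.0129) or control replicate 2 (0.0455) or 3 (0.0262). Only fenofibrate libraries reached the level of that filter, and 0 controls did. Its calls in the fits with a filter are therefore no support for a rise. Sema3a had 7 counts with fenofibrate and 16 in control, and Sema5a 0 in all libraries.

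**Figure D2:**
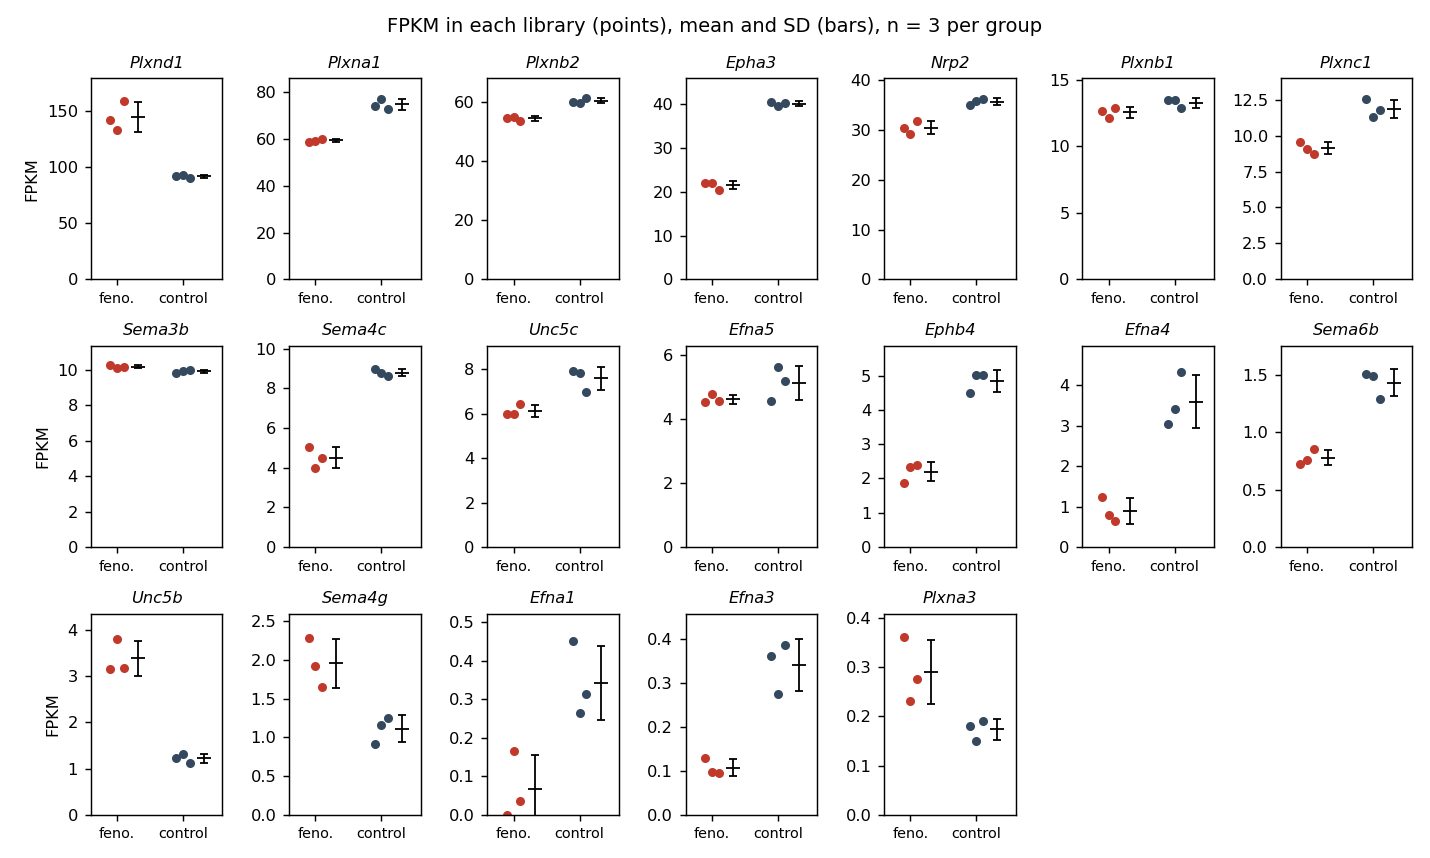
FPKM in each library for the 19 guidance genes called with at least a 1.5-fold change or with a mean of at least 5 FPKM in either group, fenofibrate left of control, with mean and SD beside the points (n = 3 each, axes from 0, the lower SD bar of Efna1 cut at 0). Plxnd1, Plxna3, Sema4g and Unc5b sit higher with fenofibrate, Efna5 and Plxnb1 overlap, and Sema3b differs by little.

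Among the 8 Eph receptor genes tested, 4 had log2 fold changes below 0 and 4 above. Summed over all 14 genes, Eph receptor RNA was 27.9 ± 1.17 FPKM with fenofibrate and 49.5 ± 0.645 FPKM in control. Most of this was Epha3, a receptor of ephrin-A5 that made up 77.4% ± 0.115 of Eph receptor FPKM with fenofibrate and 81.2% in control. Epha3 (ENSMUSG00000052504, chromosome 16, 63543534 to 63864175) had 22.1, 22.1 and 20.5 FPKM with fenofibrate, against 40.6, 39.5 and 40.4 FPKM in control. The spread within each group was small beside the gap (1.79-fold lower, log2 fold change -0.84 ± 0.04 SE, 95% interval -0.94 to -0.75, adjusted p = 1.67e-05). Ephb4 (ENSMUSG00000029710, chromosome 5, 137350109 to 137378669), the receptor of ephrin-B2, had 1.88, 2.34 and 2.39 FPKM with fenofibrate, against 4.49, 5.03 and 5.03 FPKM in control. It was 2.12-fold lower, again without overlap (log2 fold change -1.08 ± 0.11, 95% interval -1.33 to -0.83, adjusted p = 0.000266).

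Of 8 Eph receptor genes tested, these 2 fell, Epha4 was called higher and 5 were not called. The share called, 37.5%, was close to the 39.1% of all genes tested. Epha4, which binds ephrins of both types, had 0.597, 0.568 and 0.615 FPKM with fenofibrate, against 0.400, 0.518 and 0.430 FPKM in control (log2 fold change 0.46 ± 0.14, adjusted p = 0.0359). Its call was lost with DESeq2 (adjusted p = 0.130), without a filter on low counts (0.0507), with limma on log2(FPKM + 0.5) (0.150 with and 0.162 without a filter) or log2(FPKM + 0.1) (0.168), and without fenofibrate replicate 1 (0.0814), 2 (0.0616) or 3 (0.0902) or control replicate 1 (0.109) or 3 (0.0950). With a replicate block in edgeR, Epha4 was not called either (adjusted p = 0.0728). Epha2, a receptor of ephrin-A1, had 48, 35 and 24 counts with fenofibrate, against 51, 56 and 73 counts in control, a log2 fold change of -0.73 ± 0.29 that missed the threshold (adjusted p = 0.0843). Without fenofibrate replicate 1 it was called lower (adjusted p = 0.0312). Epha1 had 46, 51 and 35 counts with fenofibrate, against 68, 59 and 61 counts in control (adjusted p = 0.0798). Its exons overlap those of Zyx on the opposite strand, which had 15133 counts over all libraries, and without strand the reads of the pair cannot be told apart. Epha7 had log2 fold change 0.22 ± 0.09 (adjusted p = 0.0782), Epha5 0.18 ± 0.30 and the kinase-inactive Ephb6 0.04 ± 0.21. Epha6 and Ephb1 had 0 counts in all libraries. Epha8, Epha10, Ephb2 and Ephb3 were too low to test, with 0, 11, 9 and 14 counts with fenofibrate and 1, 9, 8 and 34 in control.

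Of the 8 ephrin genes tested, Efna1, Efna3 and Efna4 were called lower and 5 were not called. This share of 37.5% called was close to the 39.1% of all genes tested. Efna4 (ENSMUSG00000028040, chromosome 3, 89333390 to 89338028) had 1.25, 0.783 and 0.638 FPKM with fenofibrate, against 3.04, 3.42 and 4.32 FPKM in control, from 27, 18 and 15 counts against 66, 77 and 94 counts. The highest fenofibrate value was far below the lowest control value (3.90-fold lower, log2 fold change -1.96 ± 0.27 SE, 95% interval -2.59 to -1.33, adjusted p = 0.00123). Efna3 (ENSMUSG00000028039, chromosome 3, 89313899 to 89322965) had 5, 4 and 4 counts with fenofibrate, against 14, 11 and 15 counts in control. These few counts did not overlap (3.0-fold lower, log2 fold change -1.59 ± 0.34, adjusted p = 0.00845), though DESeq2 did not call the gene (adjusted p = 0.0924) and its exons overlap a gene on the opposite strand with 211 counts. Efna1 (ENSMUSG00000027954, chromosome 3, 89271733 to 89281142), a ligand of Epha2, had 0, 9 and 2 counts with fenofibrate, against 23, 14 and 16 counts in control. It was 4.68-fold lower with a wide interval (log2 fold change -2.23 ± 0.70, 95% interval -3.86 to -0.60, adjusted p = 0.0385). That call was lost without a filter on low counts (adjusted p = 0.0883) and without fenofibrate replicate 1 (0.0694) or 3 (0.110) or control replicate 1 (0.112), 2 (0.0597) or 3 (0.0757). With a replicate block in edgeR, Efna1 was not called either (adjusted p = 0.0841). Efna1 and Efna3 passed the count filter only through the control libraries, so their calls are no support for a fall of the ephrins as a group.

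These 3 genes lie side by side on chromosome 3, within 66296 bases from 89271733 to 89338028 and on the same strand. Within 100 kb of that span, 19 other protein-coding genes were tested, of which 4 were called higher, 4 lower and 11 were not called, with a median log2 fold change of -0.14. Over all genes tested, 39.1% were called. Because Efna1 and Efna3 passed the count filter only through the controls, this contrast is no support for a shared fall by position. Of the other ephrins, Efna5 (ENSMUSG00000048915, chromosome 17, 62604184 to 62881317), a ligand of Epha3, had 4.52, 4.77 and 4.57 FPKM with fenofibrate, against 4.57, 5.61 and 5.18 FPKM in control, and overlapped (log2 fold change -0.09 ± 0.09, 95% interval -0.31 to 0.13, adjusted p = 0.464). Efna2 had 11, 13 and 3 counts with fenofibrate, against 13, 17 and 14 counts in control (adjusted p = 0.27). The 3 ephrin-B genes, Efnb1, Efnb2 and Efnb3, had log2 fold changes of 0.13 to 0.34 with overlapping groups, and none was called. Efna5 made up 51.9% ± 3.82 of ephrin FPKM with fenofibrate and 41.1% in control, and Efna4 9.90% ± 3.26 with fenofibrate and 28.8% in control.

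**Figure D3:**
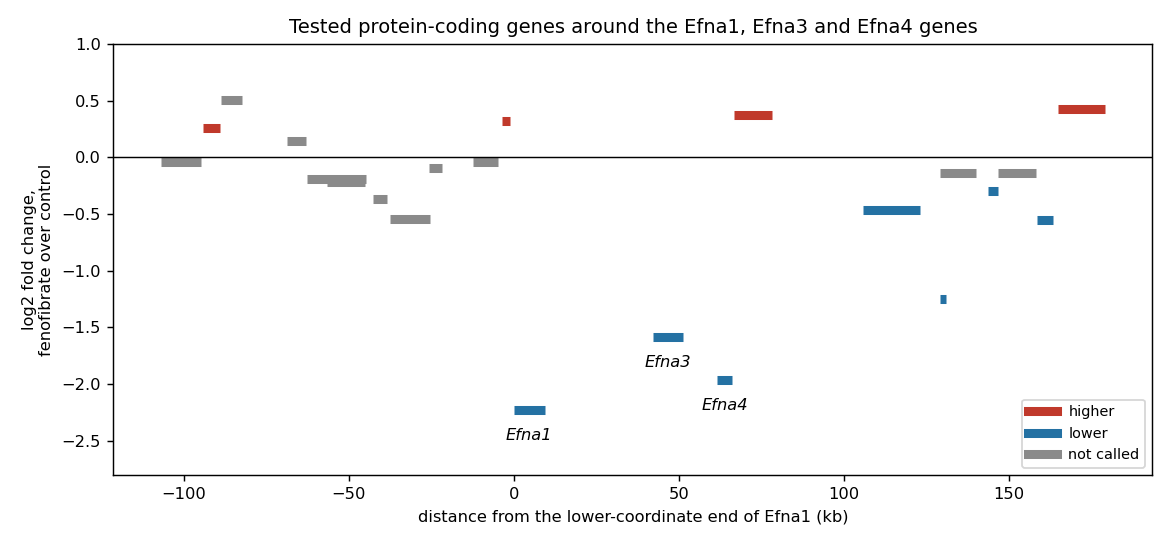
Log2 fold change of fenofibrate over control for the tested protein-coding genes within 100 kb of the Efna1, Efna3 and Efna4 genes, each drawn as a bar over its own extent, with distance in kb from the end of Efna1 with the lower coordinate. The 3 ephrin-A genes lie at -2.23, -1.59 and -1.96, while the 19 others are called higher (4), lower (4) or not at all (11). Efna1 and Efna3 passed the count filter only through the control libraries.

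**Figure D4:**
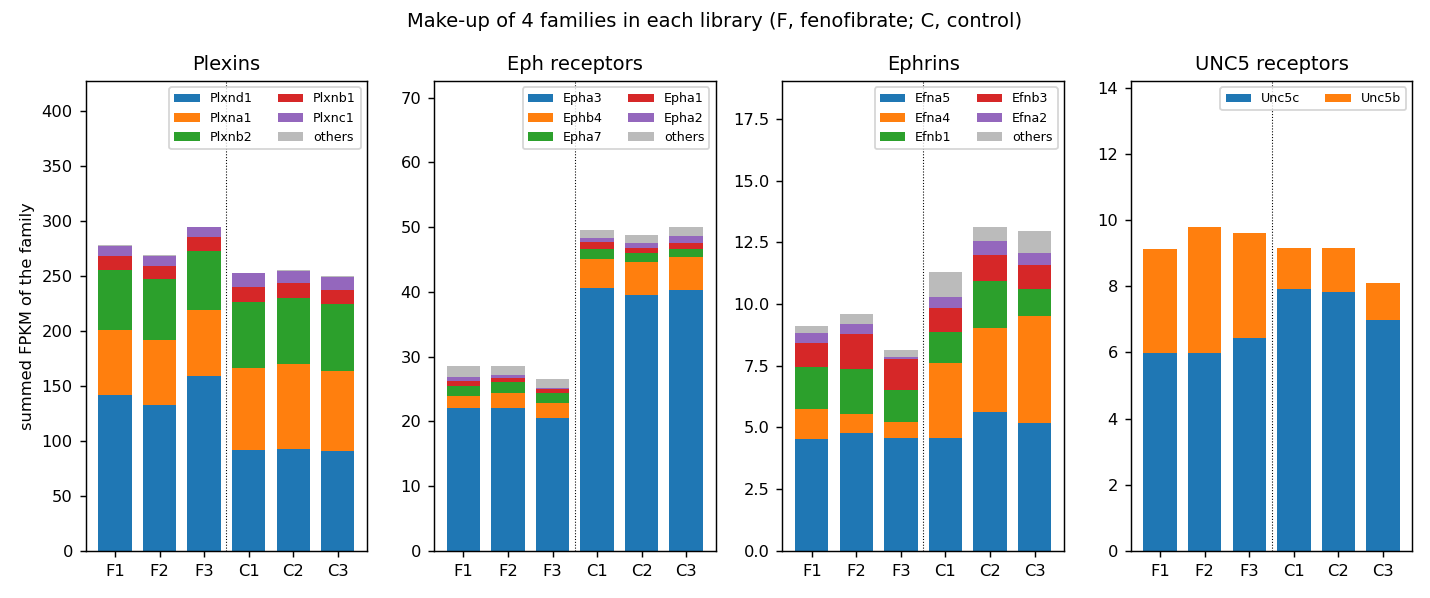
Summed FPKM of the plexins, Eph receptors, ephrins and UNC5 receptors in each library (F1 to F3, fenofibrate; C1 to C3, control), stacked by gene with the 5 genes of highest control level named. The Plxnd1 and Unc5b segments are larger with fenofibrate, and the Epha3, Ephb4 and Efna4 segments smaller.

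Netrin receptors moved apart. Unc5b (ENSMUSG00000020099, chromosome 10, 60762593 to 60831581), a netrin receptor active in vessel guidance that can trigger cell death when unbound, had 3.15, 3.81 and 3.18 FPKM with fenofibrate, against 1.24, 1.31 and 1.12 FPKM in control. All fenofibrate values were above all control values, by the largest rise among the 47 genes tested (2.87-fold, log2 fold change 1.52 ± 0.11 SE, 95% interval 1.27 to 1.77, adjusted p = 6.13e-05). Unc5c (ENSMUSG00000059921, chromosome 3, 141465216 to 141834924), the more abundant UNC5 receptor gene, had 5.98, 5.99 and 6.43 FPKM with fenofibrate, against 7.93, 7.84 and 6.99 FPKM in control. The groups did not overlap (log2 fold change -0.25 ± 0.06, adjusted p = 0.0127). The share of Unc5b in UNC5 receptor FPKM was thus 35.5% ± 3.04 with fenofibrate and 13.9% in control, while the family sum was 9.52 ± 0.342 FPKM with fenofibrate and 8.81 ± 0.606 FPKM in control. The size of these shares depends on the deposited gene lengths. Per merged exon length, Unc5b and Unc5c had 5.47 and 7.51 FPKM with fenofibrate, and 1.98 and 9.28 FPKM in control. Unc5a had 0 counts in all libraries, and Unc5d 1 count with fenofibrate and 0 in control.

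Their ligands were scarce. Ntn1, the founding netrin, had 6 counts over the fenofibrate libraries and 11 over the controls and was not tested, and Ntn5 had 0 with fenofibrate and 1 in control. Ntn4 averaged 0.853 ± 0.0695 FPKM with fenofibrate and 0.826 ± 0.103 FPKM in control (log2 fold change 0.10 ± 0.17, adjusted p = 0.663). Ntn3 averaged 0.312 ± 0.0683 FPKM with fenofibrate and 0.346 ± 0.0164 FPKM in control (adjusted p = 0.726), and its exons overlap Tbc1d24, which had 1687 counts. The other netrin receptors were unlike each other: Dcc had 0 counts in all libraries, and Neo1, which encodes neogenin, averaged 15.0 ± 0.320 FPKM with fenofibrate and 14.3 ± 0.520 FPKM in control (log2 fold change 0.12 ± 0.04, adjusted p = 0.054).

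Of the 3 Slit and 4 Robo genes, Slit2, Robo1 and Robo2 were tested, and none was called. Robo1, the main Robo gene here, had 1004, 978 and 940 counts with fenofibrate, against 938, 944 and 906 counts in control, which overlapped. The log2 fold change was 0.08 ± 0.07 (95% interval -0.07 to 0.23, adjusted p = 0.378). Slit2, the ligand gene with the highest count of the 3, had 183, 178 and 179 counts with fenofibrate, against 171, 168 and 174 counts in control (log2 fold change 0.08 ± 0.09, 95% interval -0.13 to 0.30, adjusted p = 0.508). Robo2 had 13 to 23 counts with fenofibrate and 19 to 26 in control (adjusted p = 0.337). Slit1 (12 counts with fenofibrate and 3 in control), Slit3 (2 and 0), Robo3 (15 and 8) and Robo4 (0 and 3) were too low to test.

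Ligand genes were set beside receptors that textbooks assign to them, in 46 pairs, 25 of which had both genes tested. This list of pairs was fixed beforehand and is not complete. It holds no pair for some ligand genes, among them the called Efna3, Efna4, Sema6b and Sema4g. The counts of pairs hold for the listed pairs only. Both partners were called lower for Sema4c with Plxnb2, Sema7a with Plxnc1 and Sema3f with Nrp2, and in 0 pairs were both called higher. In 3 pairs the calls were opposite: Sema6d higher with Plxna1 lower, Sema3f lower with Plxna3 higher, and Efna1 lower with Epha4 higher. The calls on Plxnb2, Sema3f, Plxna3 and Epha4 were lost with DESeq2, and that on Efna1 in other fits, as given above. Over all genes tested, 39.1% were called. Whether partners shared a direction more often than other genes was not tested. In other pairs a single partner was called. Ephb4 fell while Efnb2 averaged 0.145 ± 0.0324 FPKM with fenofibrate and 0.138 ± 0.0828 FPKM in control, and Epha3 fell while Efna5 was not called. The Plxnd1 ligand gene Sema3e averaged 0.211 ± 0.0406 FPKM with fenofibrate and 0.325 ± 0.0866 FPKM in control.

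A list of 85 partners and downstream genes of guidance signalling outside the families gave 70 tested genes, 18 lower, 15 higher and 37 without a call. The 47.1% called compares with 39.1% of all genes, and the median log2 fold change was -0.04. The list was chosen with earlier results of these data known. With limma on log2(FPKM + 0.5), which has no scaling beyond FPKM, 62 genes of the list were tested, 6 higher and 18 lower, and over all 13846 genes tested that fit gave 2031 higher and 3036 lower. Ablim1, an actin-binding LIM protein gene, had the largest rise of the list at 4.27-fold, with 1.88 ± 0.249 FPKM with fenofibrate and 0.457 ± 0.0341 FPKM in control (log2 fold change 2.09 ± 0.11, adjusted p = 2.39e-05). Further rises of at least 1.5-fold were those of Trim9 (2.31-fold, with 0.0592 FPKM with fenofibrate and 0.0264 FPKM in control), a ubiquitin ligase gene whose product binds DCC, the small GTPase genes Rras2 (2.00-fold) and Rhod (1.71-fold), the actin oxidase gene Mical2 (1.99-fold), the glypican gene Gpc1 (1.74-fold) and the kinase gene Abl2 (1.71-fold). The call on Trim9 was lost with DESeq2 (adjusted p = 0.0855), with limma on log2(FPKM + 0.5) without a filter (0.171, and 0.0903 for Mical2), and without fenofibrate replicate 1 (0.0532) or 2 (0.0540) or control replicate 2 (0.0536).

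Falls of at least 1.5-fold in that list were led by Rgma, which encodes a repulsive ligand of neogenin, with 0.788 ± 0.0991 FPKM with fenofibrate and 2.00 ± 0.127 FPKM in control (2.44-fold lower, log2 fold change -1.29 ± 0.13, adjusted p = 0.000294). The collapsin response mediators Dpysl2 (2.09-fold lower) and Crmp1 (1.70-fold lower), which relay Sema3a signals to microtubules, fell. Dpysl2 averaged 2.77 ± 0.389 FPKM with fenofibrate and 6.01 ± 0.221 FPKM in control, and Crmp1 4.83 ± 0.0665 FPKM with fenofibrate and 8.55 ± 0.0769 FPKM in control. The others were Trim67 (2.24-fold lower), the cofilin phosphatase gene Ssh1 (1.78-fold), the Robo-binding GTPase regulator gene Arhgap39 (1.55-fold) and the adaptor gene Nck2 (1.5-fold), with adjusted p values of 0.000344 to 0.0057.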

How the data were processed

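RNA of 3 fenofibrate and 3 control libraries, grouped by sample title, was analysed from a table in which the authors deposited raw counts and FPKM values per gene and library, per the file headers. HISAT2 2.0.4, StringTie 1.3.0 and GRCm39 are named in the submitters' processing notes without roles; the counting tool and strand setting are not given in the sources used here. The table's coordinates are those of GENCODE M21 (GRCm38) for all 68 guidance genes. The deposited FPKM divide counts by the library total and by a length equal, for 63 of the 64 guidance genes with a count (tolerance 0.1%), to the sum of all distinct exons, 1.00 to 2.48 times the merged exon length. All family sums and shares use these deposited FPKM.

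Counts were tested in R 4.3.3 with edgeR 4.0.16 (filterByExpr, TMM, glmQLFit, glmQLFTest) over 13629 genes, with Benjamini-Hochberg adjustment. SE is the log2 fold change over the square root of F. The script was tested on simulated data. Replicates of either group differed by more than sampling noise. Alternatives were DESeq2 1.42.0, RLE scaling, no filter, a replicate block, each library left out, and limma 3.58.1 on log2(FPKM + 0.5) or + 0.1, for genes with a mean of at least 0.5 FPKM in either group or without a filter. Upstream sequences are RefSeq's, GRCm38.p6.

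Members, lists and tests were chosen with earlier results of these data known. All called guidance genes were named. Values in every library were given for called genes changed at least 1.5-fold and for genes with a mean of at least 5 FPKM in either group, and for other guidance genes where leaving out a single library changed a call. No guidance gene with a mean of at least 50 counts in a group differed 2-fold or more among its replicates. Genes of the signalling list did, among them Rac1, Gsk3b, Dcbld2 and Tiam1, which were not called. Rac1 had 1518, 1680 and 5116 counts with fenofibrate, against 1937, 2162 and 5472 counts in control. Results of some marker genes are not reported here.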

Additional observations from a re-analysis of the deposited data

How the results depend on the processing

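Of the 21 guidance genes called, 14 kept direction and call under each of the 13 alternatives that tested them: Efna4, Epha3, Ephb4, Nrp2, Plxna1, Plxnc1, Plxnd1, Sema4c, Sema4g, Sema6b, Sema6d, Sema7a, Unc5b and Unc5c. The number called ran from 15 to 21, and the number called lower from 11 to 14. The number called higher was 4 with DESeq2 and 4 with limma on FPKM under both pseudocounts and without a filter, against 7, and ran from 4 to 7 as each library was left out. These counts come from unlike sets, as the limma fits tested 32 guidance genes with a filter and 64 without, against 47 in the main fit. In the signalling list 6 genes were called higher in each of the 3 limma fits on FPKM, against 15; over all genes these fits called 2031, 2031 and 1873 higher, against 2664, and 3036, 3033 and 2684 lower, against 2662. The cause was not tested. The replicate numbers did not pair the libraries (correlations of deviations from the group means of -0.0035 to 0.0278 for equal numbers), and with a replicate block 16 guidance genes were called, 5 higher and 11 lower, without Efna1 (adjusted p = 0.0841), Epha4 (0.0728), Nrp1 (0.0673), Plxnb2 (0.119) and Sema3f (0.0527). Directions turned only for genes never called: Ephb6 (0.04) was -0.011, -0.020 and -0.011 with limma at pseudocounts of 0.5 and 0.1 and without a filter, and Sema6a (0.03) -0.013 without a filter. Leaving out each library gave log2 fold changes from -0.13 to 0.18 for Ephb6, -0.17 to 0.27 for Sema6a, -0.30 to 0.48 for Efnb2, -0.055 to 0.42 for Epha5, -0.27 to 0.041 for Ntn3 and -0.048 to 0.00032 for Plxnb1. Fits that leave out a library keep 2 in that group. Depth limits the 21 genes not tested, and Efna1 and Efna3 rest on 0 to 9 counts per fenofibrate library.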
